A study of Mus musculus with 2 samples.

Results

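Choroid plexus epithelial RNA was found in a small set of barcodes that came through a microglia sort. The set was chosen by a rule on the counts: a barcode, the tag of 1 droplet, needed at least 500 genes, at least 1000 UMIs (unique molecular identifiers, each counting 1 captured RNA molecule) and at most 10% of UMIs from mitochondrial DNA. It also needed at least 20 UMIs of Ttr and at least 2 of the 6 genes Enpp2, Folr1, Sostdc1, Trpm3, 1500015O10Rik and Igfbp2. The rule took 130 of the 17167 barcodes that passed the filter, out of 18012 deposited. In the awake library these were 42 of 8223 passing barcodes (0.511%, exact Clopper-Pearson 95% interval 0.368 to 0.690%). In the anesthesia library they were 88 of 8944 (0.984%, 0.790 to 1.21%). The intervals cover counting error only, and both the gate and the dissociation can set these shares.

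Every mouse was an adult male of the inbred strain C57BL/6J, with the genotype labelled C57. Brains were dissociated with collagenase IV and DNase I, cleared of myelin on Percoll and sorted for CD11b with low CD45. The awake group is 3 mice given normal saline and the anesthesia group is 3 mice given 100 mg/kg of the barbiturate sodium pentobarbital. Each group is 1 library made with the 10x Chromium 3' v3 kit. The labels do not say if the mice of 1 group were pooled, nor give the duration of anesthesia or the hour. With 1 library per group, no difference between groups has a replicate check and none is tested below.

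The choroid plexus is a sheet of cuboidal epithelium over a vascular core that hangs in the brain ventricles. Its epithelium makes cerebrospinal fluid by moving ions and water from blood to ventricle, and this work is known to need many mitochondria. It also secretes carrier and trophic proteins into the fluid, above all transthyretin (Ttr), which carries thyroid hormone and takes part in vitamin A transport. The epithelium makes neither CD11b nor CD45, the proteins on which the cells were sorted.

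The chosen barcodes fell into groups that differed in microglial RNA. A list of 21 microglial genes, among them Cx3cr1, P2ry12, C1qa and Csf1r, took a median of 5.54% of UMIs in the other passing barcodes of the awake library and 4.98% in those of the anesthesia library. A chosen barcode was called microglia-poor where its own share was under 25% of that median (under 1.38% awake and under 1.25% anesthesia). This held for 22 of 42 awake barcodes (52.4%, exact 95% interval 36.4 to 68.0%) and 49 of 88 anesthesia barcodes (55.7%, 44.7 to 66.3%). The other 20 and 39 are called microglia-rich. In the microglia-rich barcodes the list took a median of 3.95% of UMIs awake and 3.77% under anesthesia, not far from the level of sorted microglia, and these barcodes held Ttr besides. The classes are ranges of 1 score: 4 awake and 12 anesthesia barcodes lay within 2-fold of the limit. Across the chosen barcodes the microglial share and the Ttr share ran against each other (Spearman's rho -0.76 over 42 awake and -0.82 over 88 anesthesia barcodes, as a description, since both are shares of 1 total). No doublet caller was used, and whether a microglia-rich barcode held a cell of each kind or free RNA was not tested. The Ttr share of microglia-rich barcodes went down to 0.746% awake and 0.342% under anesthesia, beside highest shares of 0.470% and 0.813% in the other passing barcodes. The name choroid plexus epithelium fits most of the microglia-poor barcodes by their markers, but not 3 with endothelial RNA, described next. It is also less clear for anesthesia barcodes with Ttr shares of 6.74% and 7.07%, which held no UMI of Clu, Kl or Prlr. The microglia-rich ones carry RNA of both kinds. Comparisons of the libraries are therefore given for the microglia-poor barcodes, for all chosen ones or for both, and many single genes have only the microglia-poor value.

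**Figure D1:**
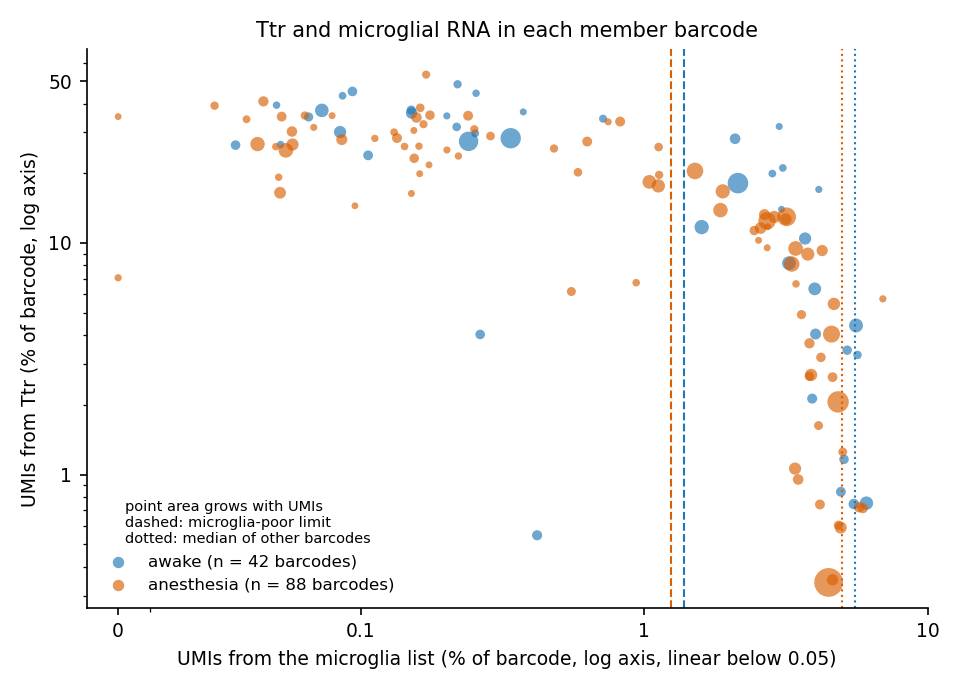
Each point is 1 chosen barcode, placed by the percent of its UMIs from the microglia list (x, log axis, linear below 0.05) and from Ttr (y, log axis), with the area growing with its UMIs. Awake (n = 42) and anesthesia (n = 88) barcodes both spread from a group high in Ttr and low in microglial RNA to a group near the microglial share of the other passing barcodes (dotted lines), with the microglia-poor limit dashed.

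Depth differed far more between barcodes than between libraries. The chosen barcodes held from 1181 to 35849 UMIs awake (median 5336) and from 1050 to 73030 under anesthesia (median 5140), which sum to 332356 and 688985 UMIs. The microglia-poor ones sum to 159859 and 222308 UMIs, with medians of 4620 and 3184. The 2 deepest awake microglia-poor barcodes, with 34947 and 31694 UMIs, hold 41.7% of their set, against 14.6% for the 2 deepest of the anesthesia set. Differences that rest on them are marked below. A second feature concerns endothelial RNA: 2 awake microglia-poor barcodes held 138 and 124 UMIs of a list of 12 endothelial genes and 1 anesthesia barcode held 57, while no other chosen barcode reached 20. Their Ttr shares were 4.03% and 0.547% awake and 6.17% under anesthesia, so these 3 carry markers of endothelium besides the rule genes. No barcode sequence of a chosen barcode was shared by the libraries, of 14 shared in all.

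The rule genes set the identity of the set and are given as a description. Ttr took a median of 34.7% of all UMIs in a microglia-poor barcode awake (lowest 0.547%, highest 48.4%) and 27.4% under anesthesia (6.17 to 53.3%). In the microglia-rich barcodes the medians were 7.26% and 5.46%. The awake barcode at 0.547% is one of the 2 with endothelial RNA. The chosen barcodes with the fewest Ttr UMIs had 34, 49 and 52 awake and 27, 31 and 43 under anesthesia. The passing barcodes just short of the Ttr minimum that met the rest of the rule had 15 and 3 UMIs awake and 19 and 11 under anesthesia. A further 2 awake barcodes (40 and 21 Ttr UMIs) and 1 anesthesia barcode (45) had enough Ttr but fewer than 2 of the other genes. All 6 other genes were present in 16 of 42 awake and 45 of 88 anesthesia barcodes. A trace of Ttr was widespread outside the set: 22.4% of the other awake barcodes and 27.9% of the other anesthesia barcodes held at least 1 Ttr UMI, at summed levels of 44.0 and 53.1 CPM (counts per 1000000 UMIs).

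The levels of the rule genes over all chosen barcodes differed by less than 2-fold between the libraries, and each was lower in the anesthesia library. Ttr, the thyroid hormone carrier, stood at 193452 CPM awake and 132122 under anesthesia (log2 anesthesia over awake -0.55). Enpp2 encodes autotaxin, the secreted enzyme that makes lysophosphatidic acid, and stood at 8966 and 8171 CPM (-0.13). Folr1, the folate receptor that carries folate into the fluid, stood at 779 and 504 CPM (-0.63). Igfbp2, a secreted binder of insulin-like growth factors, stood at 1829 and 971 CPM (-0.91), and the secreted peptide gene 1500015O10Rik at 2407 and 1582 CPM (-0.61). The cation channel gene Trpm3 stood at 710 and 494 CPM (-0.52). The median over the 7 rule genes was -0.61 over all chosen barcodes, -0.225 in microglia-poor and -0.50 in microglia-rich ones. In the microglia-rich barcodes the microglia list took 3.67% of summed UMIs awake and 3.72% under anesthesia. What the shift rests on was not tested. In the microglia-poor barcodes alone the values were -0.15 for Ttr, 0.27 for Enpp2, -0.25 for Folr1, -0.53 for Igfbp2, -0.19 for 1500015O10Rik and -0.22 for Trpm3. Sostdc1, a secreted antagonist of BMP and Wnt ligands, kept its value: 1576 CPM awake and 855 CPM under anesthesia in the microglia-poor barcodes (-0.88, 95% counting interval -1.16 to -0.61). Without the deepest 10% of barcodes of each library that Sostdc1 value was -0.11, so it rests on the deep barcodes.

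Outside the rule genes, 38 further choroid markers were listed, of which 20 were measured awake and 27 under anesthesia. Of those with at least 50 UMIs, counting the members together with what the other barcodes' level would give, 20 of 20 were at least 2-fold higher in the chosen than in the other barcodes of the awake library, where 15.3% of the 2081 genes measured so were. In the anesthesia library 26 of 27 were, against 11.8% of 4130 genes. The median log2 ratios were 10.74 and 10.42, beside medians over all measured genes of -0.45 and -0.36. The members were picked on these same counts, so the ratios describe the set and are no independent support for it. A marker with almost no RNA in the other barcodes also reaches 50 UMIs only where it is high in the members. Over the microglia-poor barcodes alone 12 of 12 and 22 of 22 markers were at least 2-fold higher, where 25.2% of 872 and 27.5% of 1322 genes were.

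Among the 20 genes with the highest ratios were parts of the fluid-making machinery. Kcnj13, the apical potassium channel Kir7.1, stood at 608 CPM awake and 431 under anesthesia in the chosen barcodes and at 0.248 and 0.234 CPM in the others. Kcne2, a potassium channel subunit, stood at 277 and 183 CPM against 0.0571 and 0.134. Clic6, of the chloride intracellular channel family, stood at 253 and 231 CPM against 0.0952 and 0.1001. The potassium channel gene Kcnk1 stood at 208 and 149.5 CPM, and Fxyd1, a regulator of the sodium pump, at 620 and 541 CPM. Of the list of ion and water transport genes, 9 of 10 measured ones were at least 2-fold higher than in the others awake and 11 of 15 under anesthesia (median log2 6.91 and 7.16), where 15.3% and 11.8% of all measured genes were. The sodium pump beta subunit Atp1b1 was among them at 557 and 466 CPM against 3.18 and 3.25. As with the choroid markers, a gene of this list nearly absent from the others counted as measured only where it was high in the members. Aqp1, the apical water channel, had 26 UMIs awake in 6 barcodes and 22 UMIs under anesthesia in 20 barcodes.

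Kl, Prlr and Htr2c were also among the leading genes. Of the list of hormone and transmitter receptors, 2 of 4 measured genes were at least 2-fold higher than in the other barcodes awake and 2 at least 2-fold lower, where 15.3% and 30.4% of all measured genes were (median log2 5.06). Under anesthesia 2 of 6 were higher and 0 lower, where 11.8% and 8.23% of all were (median log2 -0.40). Here too, a gene nearly absent from the others counted as measured only where it was high in the members. Kl encodes klotho, the co-receptor for a phosphate-regulating fibroblast growth factor, and stood at 355 CPM awake and 319 under anesthesia against 0.0762 and 0.0501 in the others. The gene lies at chr5:150952607-150993817 on the plus strand of GRCm38. Prlr, the prolactin receptor, stood at 677 and 269 CPM against 0.114 and 0.1001. Htr2c, the serotonin receptor known for its high level in this epithelium, stood at 211 and 166 CPM against 0.0762 and 0.1001. Thinned to 2000 UMIs per barcode, 5 of 17 awake microglia-poor barcodes (29.4%) and 12 of 33 anesthesia ones (36.4%) held an Htr2c UMI. In the other awake barcodes 1 of 7947 did (0.0126%), and unthinned shares in the microglia-poor set were 8 of 22 and 23 of 49. Thinning left out 5 awake and 16 anesthesia microglia-poor barcodes of lower depth.

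Otx2, the homeobox factor that specifies and maintains choroid plexus, was the leading transcription factor of the set at 193 CPM awake and 144 under anesthesia (64 and 99 UMIs) against 0.0381 and 0.0167 in the others. The exons of Otx2 overlap Gm49154 on the same strand and those of Prlr overlap Gm21973, so the counts of these genes depend on how shared reads were assigned. The epithelial keratin gene Krt18 stood at 168.5 and 115 CPM, Spint2, a protease inhibitor of epithelia, at 409 and 274 CPM, and the calmodulin-like Calml4 at 457 and 417 CPM. The other leading genes were Steap1, Wfdc2, Gpx8, Prcd, Slc7a10, Ppp1r1b, Lbp and Col8a1. Lbp encodes the lipopolysaccharide-binding protein and stood at 307 and 222 CPM against 0.685 and 0.167. Slc7a10 sits on the astrocyte list of this work. Of the astrocyte list only Slc7a10 and Sox9 were measured, and Gfap had 0 UMIs in the chosen barcodes of both libraries.

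**Figure D2:**
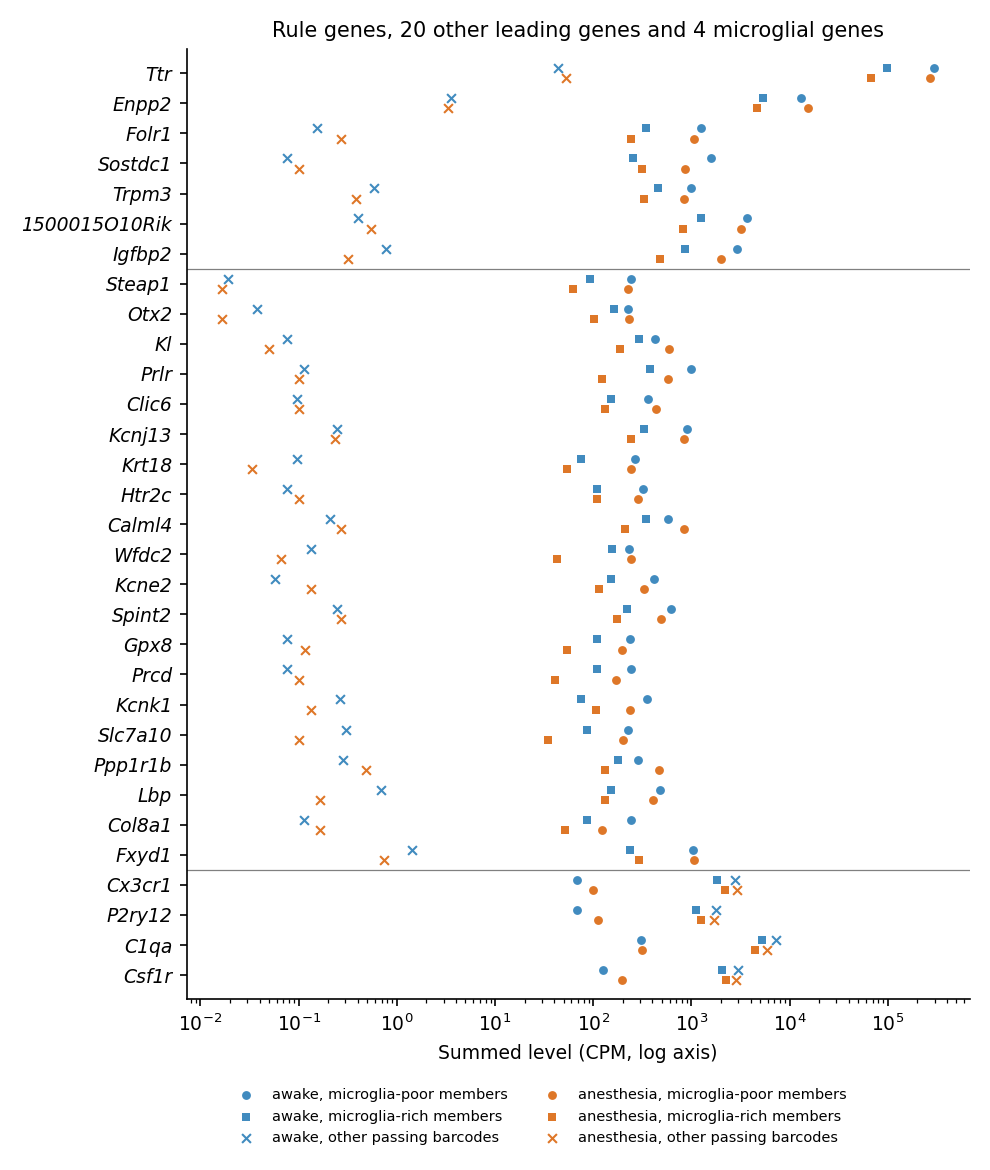
Summed levels in CPM (log axis) of the 7 rule genes, the 20 other leading genes and 4 microglial genes, in microglia-poor members (circles), microglia-rich members (squares) and other passing barcodes (crosses) of the awake and anesthesia libraries. The choroid genes fall from circles to squares to crosses, and the microglial genes run the other way, as with Cx3cr1 at 68.8 CPM in awake microglia-poor members and 2749 CPM in the other awake barcodes.

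Choroid genes with little or no RNA in the set bound what it holds. Lrp2, Cp and Crabp2 had 0 UMIs in the chosen barcodes of both libraries, and Igf2 had 2 UMIs in each. A count of 0 allows up to 3 UMIs in the summed total. Tmem212 and Ccdc153, markers of multiciliated ependyma, also had 0 UMIs. The cilium genes Rsph1 (132 and 97.2 CPM against 0.0571 and 0.0334 in the others), Dynlrb2 (72.2 and 74.0 CPM) and Foxj1 (33.1 and 49.4 CPM), the regulator of motile cilia, were present. In the microglia-poor barcodes the lists of border-associated macrophage genes and lymphocyte genes together with Ptprc, which encodes CD45, were close to absent. The macrophage list had 1 UMI awake and 4 under anesthesia, the lymphocyte list 0 and 2, and Ptprc 0 and 4. Itgam, which encodes CD11b, had 2 UMIs in 22 awake barcodes and 6 in 49 anesthesia barcodes. In the microglia-rich barcodes Itgam stood at 325 and 414 CPM, beside 423 and 518 CPM in the other passing barcodes.

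Genes of oxidative phosphorylation, the mitochondrial pathway that makes ATP, were high across the set. Of 48 nuclear genes for its subunits, 40 of 46 measured ones were at least 2-fold higher than in the other barcodes awake and 42 of 48 under anesthesia (median log2 1.97 and 2.01), where 15.3% and 11.8% of all measured genes were. In the microglia-poor barcodes 37 of 37 and 45 of 46 were (2.43 and 2.92), where 25.2% and 27.5% of all were. Per barcode, the list took a median of 4.21% of UMIs in awake microglia-poor members (0.847 to 6.86%) and 4.90% in anesthesia ones (1.77 to 9.87%), against 0.597% and 0.601% in the others. Transcripts of mitochondrial DNA took 4.45% and 3.54% against 0.883% and 1.31%. These genes were all counted in the same barcodes that the rule chose, and the rule caps the mitochondrial share at 10%.

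Immediate early genes, the fast transcripts that respond to stimulation and to dissociation, were low in the set where microglial RNA was low. In the microglia-poor barcodes 17 of 17 measured ones were at least 2-fold lower than in the other awake barcodes and 18 of 19 than in the other anesthesia barcodes, where 44.4% and 42.5% of all measured genes were (median log2 -2.40 and -3.03). Per barcode they took a median of 0.153% and 0.0974% of UMIs, against 3.42% and 2.54% in the other passing barcodes. Over all chosen barcodes 17 of 20 were at least 2-fold lower awake and 1 of 21 under anesthesia, where 30.4% of 2081 and 8.23% of 4130 genes were. A gene low in the members counted as measured mainly through its level in the others. The microglia-poor barcodes were also picked for low microglial RNA, so these counts describe the set. Fos was seen in 9 of 22 awake microglia-poor barcodes, and in 5 of 17 after thinning (29.4%), against 83.4% of the other awake barcodes.

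The design allows a comparison of 1 awake with 1 anesthesia library, so treatment cannot be told apart from any other difference between the libraries. Over all chosen barcodes 3079 genes had at least 50 UMIs in the 2 libraries together. Of these 245 were at least 2-fold higher under anesthesia (7.96%) and 47 at least 2-fold lower (1.53%), with a median log2 ratio over all of them of 0.11. In the microglia-poor barcodes 54 of 919 genes were higher (5.88%) and 28 lower (3.05%), with a median of 0.13. In the other passing barcodes 1052 of 14881 were higher (7.07%) and 632 lower (4.25%). Without the 3 barcodes holding endothelial RNA, 54 of 868 (6.22%) and 13 (1.5%) microglia-poor genes passed 2-fold. All ratios below are log2 anesthesia over awake of CPM, with 95% intervals that cover counting error only, and differences between chosen and other barcodes were not tested.

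The 10 highest ratios over all chosen barcodes were those of Rasgef1b, Gpr183, Ccl4, Mt2, Git2, Ccl3, Samsn1, Etv3, Tnf and Med13l. Ccl4, a chemokine, had 149 UMIs awake and 1984 under anesthesia (2.68), of which 13 and 46 lay in microglia-poor barcodes, and it stood at 1.25 in the other passing barcodes. Rasgef1b, with 5 and 76 UMIs, had 0 and 2 in microglia-poor barcodes. There Gpr183 had 0 and 2 UMIs, Git2 0 and 3, Samsn1 0 and 4, Etv3 1 and 3, Med13l 2 and 4, Tnf 1 and 17 and Ccl3 9 and 45. The microglia list as a whole had a median of 0.46 over all chosen barcodes, with 19 of 21 genes above 0, beside -0.22 for the same genes in the other barcodes. The summed microglial share of the set was 2.01% awake and 2.63% under anesthesia. Without the deepest 10% of barcodes the median of the microglia list was -0.24, so that difference rests on a few deep barcodes.

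Metallothioneins, small cysteine-rich proteins that bind zinc and copper, were higher under anesthesia in the microglia-poor barcodes. Mt3, the form typical of brain, had 191 UMIs awake and 674 under anesthesia, or 1195 and 3032 CPM (1.34, 1.11 to 1.58). By barcode Mt3 ranged from 0 to 2833 CPM awake with a median of 1101 and from 0 to 10760 CPM under anesthesia with a median of 2998. The highest of these barcodes had a Ttr share of 6.74%. At least 1 UMI was present in 17 of 22 awake and 48 of 49 anesthesia barcodes, and the ranges overlapped. After thinning the shares were 14 of 17 (82.4%, 56.6 to 96.2%) and 30 of 33 (90.9%, 75.7 to 98.1%), which overlapped too. Mt1 had 51 and 195 UMIs, or 319 and 877 CPM (1.46, 1.01 to 1.93), with median barcode levels of 58.0 and 483 CPM. After thinning 7 of 17 and 18 of 33 barcodes held an Mt1 UMI, a difference within the counting intervals of the shares (18.4 to 67.1% and 36.4 to 71.9%).

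Mt2 was seen in few microglia-poor barcodes, 1 of 22 awake and 6 of 49 under anesthesia. It had 1 UMI in the awake and 41 UMIs in the anesthesia microglia-poor barcodes, and 34 of the 41 lay in 3 barcodes. The awake UMI and the larger anesthesia counts were in deep barcodes, between 10458 and 34947 UMIs, and each of these also held Mt1 (from 18 to 37 UMIs) and Mt3 (from 12 to 51). There Mt2 lies under the minimum of 50 UMIs for a measured gene, and the ratio of 4.88 has an interval of 2.32 to 10.22. Over all chosen barcodes the ratios were 0.80 for Mt3, 1.25 for Mt1 and 2.63 for Mt2. In the other passing barcodes, Mt1 and Mt2 were also higher under anesthesia (0.79, from 599 to 1032 CPM, and 1.65, from 25.6 to 80.2 CPM), while Mt3 stood near 0 (-0.07, 6.84 and 6.51 CPM). The Mt3 value of the microglia-poor set was 1.26 without the endothelial barcodes and 1.67 without the deepest 10%, and that of Mt1 was 1.36 and 0.99.

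The 3 metallothionein genes lie side by side on chromosome 8 of GRCm38, all on the plus strand: Mt3 at 94152607 to 94154146, Mt2 at 94172664 to 94173568 and Mt1 at 94179082 to 94180327. Metal-responsive transcription factor is known to act on Mt1 and Mt2 through short elements of the form TGCGCNC or TGCACNC. Mt3 is known to respond poorly to metals. The stretches below run from such a core to the TATA box (TATAAA) that follows it, both in capitals. The reason to show them is that Mt1 and Mt3 were higher under anesthesia than awake in the microglia-poor barcodes. The 3 neighbouring genes also share this arrangement. They are GRCm38 sequence of the gene strand, taken from the annotated GENCODE M21 transcripts, in which the TATA box falls inside the annotated first exon.
Mt1 (chr8:94179187-94179215): TGCGCCCggactcgtccaacgacTATAAA
Mt2 (chr8:94172729-94172758): TGCGCTCgacccaatactctccgcTATAAA
Mt3 (chr8:94152693-94152718): TGCGCGCccccgcctggggcTATAAA
The spacing between core and TATA box is 16 bases in Mt1, 17 in Mt2 and 13 in Mt3. A core followed by TATAAA after 10 to 25 bases occurs in the first 200 annotated bases of 4 of 21857 protein-coding genes (0.0183%), and a core alone, on either strand, in 4556 (20.8%). Most annotated starts lie beyond a TATA box, which bears on the first share, and the arrangement was chosen after reading Mt1 and Mt2. The match is a description of sequence, and no factor was measured.

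Nuclear genes of oxidative phosphorylation were modestly higher under anesthesia in the microglia-poor barcodes, and transcripts of mitochondrial DNA were not. Of 46 measured nuclear genes 41 lay above 0 and 5 were at least 2-fold higher, where 5.88% of all measured genes were, with a median of 0.40 beside 0.13 for all genes and -0.08 for the same genes in the other passing barcodes. The 5 were Ndufa5 (25 and 92 UMIs, 1.40, 0.75 to 2.10), Ndufs5 (1.33), Ndufa3 (1.24), Cox6c (171 and 520 UMIs, 1.13, 0.88 to 1.39) and Atp5l (1.33). Ndufa3, Ndufa5 and Ndufs5 encode subunits of complex I, Cox6c one of complex IV and Atp5l one of ATP synthase. By complex the medians were 0.52 for 13 genes of complex I, 0.27 for 3 of complex II, 0.38 for 8 of complex III, 0.45 for 10 of complex IV and 0.32 for 10 of ATP synthase. In 44 of the 46 genes the value lay above that of the same gene in the other barcodes. The nuclear median ran from 0.27 to 0.51 over the alternatives for the microglia-poor set, and was -0.02 over all chosen barcodes and -0.18 over the microglia-rich ones.

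The 9 measured mitochondrial DNA genes had a median of 0.06 in the microglia-poor barcodes beside 0.84 in the others. mt-Nd4 stood at 9177 CPM awake and 5488 under anesthesia (-0.74), where the other barcodes gave -0.08. For mt-Nd2 the values were -0.50 and 0.25, for mt-Nd1 -0.36 and 0.42 and for mt-Cytb -0.29 and 0.19. mt-Co1 (0.79 and 0.89) and mt-Atp8 (1.57 and 1.71) were higher in both.

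**Figure D3:**
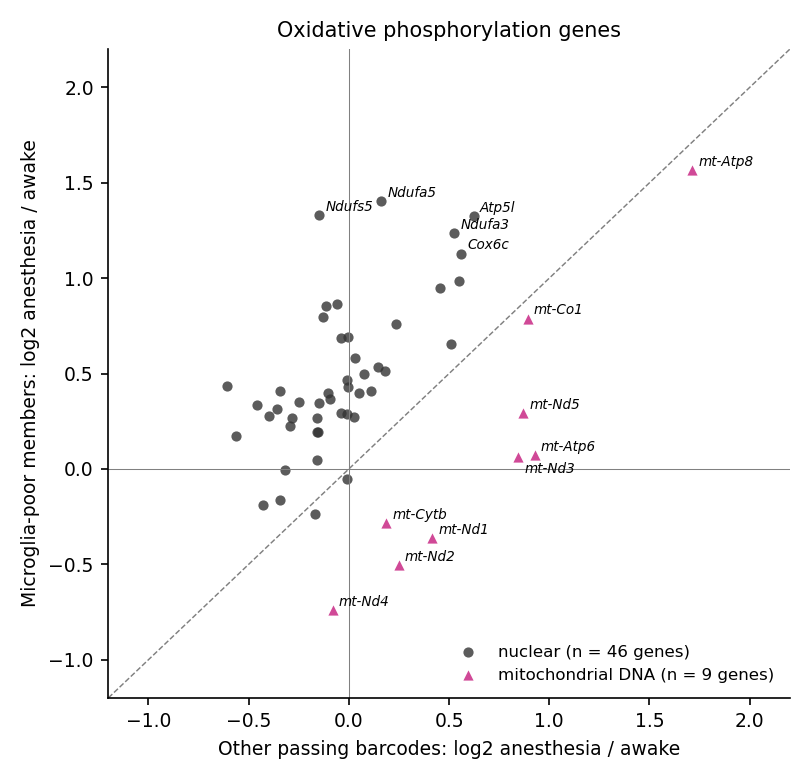
Each point is 1 gene of oxidative phosphorylation, with its log2 anesthesia over awake in the other passing barcodes (x) and in microglia-poor members (y), and the dashed line marks equal values. Of the 46 nuclear genes (circles) 44 lie above the line, and the 9 genes of mitochondrial DNA (triangles) lie below it.

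Cox8b, a complex IV subunit gene that is a choroid marker here, differed more than the rest. It had 24 UMIs awake in 5 of 22 microglia-poor barcodes and 130 under anesthesia in 26 of 49, or 150 and 585 CPM (1.96, 1.33 to 2.65). Of the 24 awake UMIs 19 lay in 1 barcode, and of the 130 anesthesia UMIs 83 lay in 3. The highest barcode stood at 715 CPM awake and 4976 CPM under anesthesia. At 2000 UMIs per barcode 3 of 17 (17.6%, 3.80 to 43.4%) and 11 of 33 (33.3%, 17.96 to 51.8%) held a Cox8b UMI, so the shares overlapped within counting error. In the other passing barcodes Cox8b had 0.0190 CPM awake and 0.0334 CPM under anesthesia. The gene lies at chr7:140898945-140900446 on the minus strand.

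**Figure D4:**
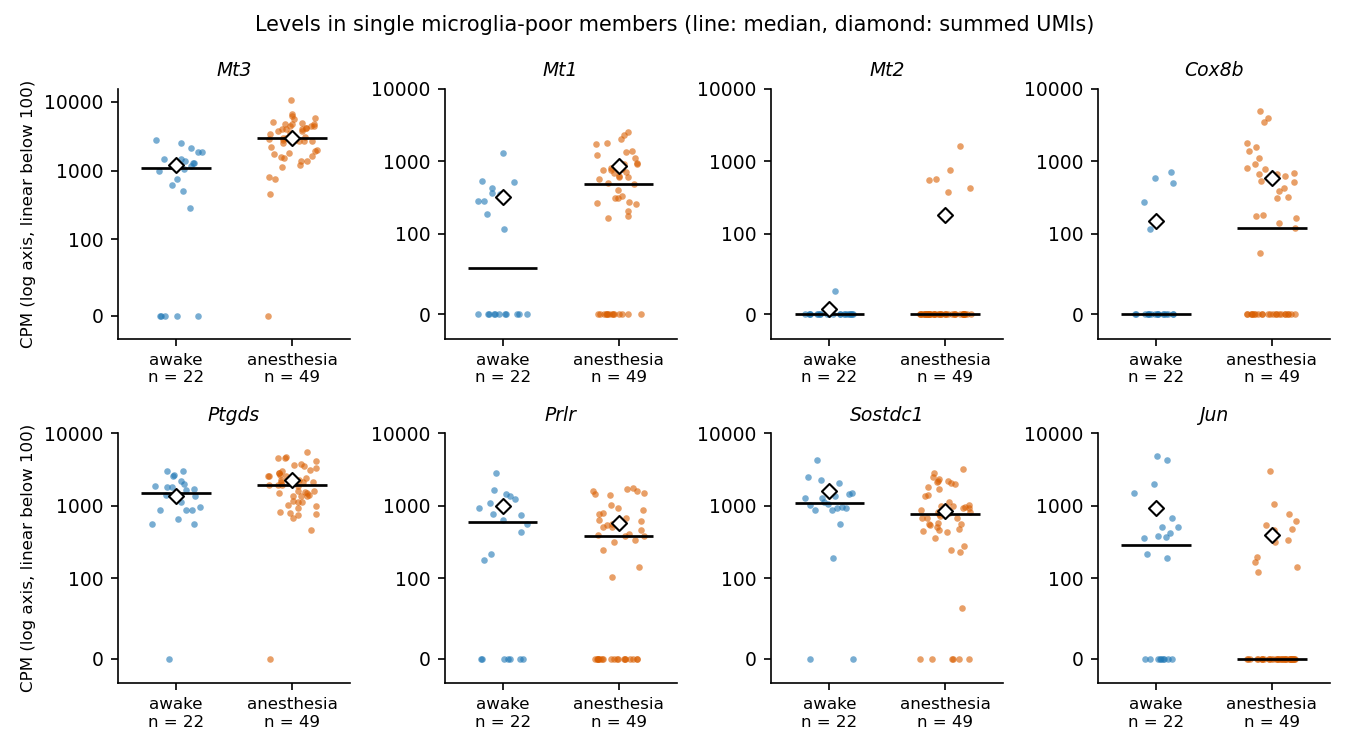
CPM of 8 genes in each microglia-poor member (y, log axis, linear below 100) of the awake (n = 22) and anesthesia (n = 49) libraries, with the median as a line and the summed level as a diamond. Mt3 medians stand at 1101 and 2998 CPM, and the barcodes of the libraries overlap for every gene.

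Genes for secreted and carried products of the epithelium were in part higher in the anesthesia microglia-poor barcodes. Ptgds encodes the prostaglandin D synthase that the choroid plexus secretes as beta-trace protein. It stood at 1370 CPM awake and 2249 under anesthesia (219 and 500 UMIs, 0.72, 0.48 to 0.95), against -1.64 in the other barcodes. Clu, the secreted chaperone clusterin, stood at 1458 and 2114 CPM (0.54), against -0.72 in the others. Cst3, the secreted protease inhibitor cystatin C, stood at 4410 and 6217 CPM (0.50), and is also a microglial gene, at 48418 and 46236 CPM in the others. As a whole the 14 measured genes of the secreted list had a median of 0.13, equal to that of all genes, with none at least 2-fold higher and 1, Igfbp7, lower. Over all chosen barcodes the list went the other way, with 3 of 15 genes above 0 and a median of -0.13. In the microglia-rich ones 1 of 11 lay above 0, with a median of -0.21.

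Of the genes for thyroid hormone and retinoid handling, 4 were measured in the microglia-poor barcodes, all above 0 and none past 2-fold. Over all chosen barcodes 2 of 4 lay above 0. Rdh5, a retinol dehydrogenase, stood at 300.3 CPM awake and 544 under anesthesia (0.86, 0.36 to 1.37), and over all chosen barcodes at 0.01. Slco1c1, a thyroxine transporter, stood at 338 and 387 CPM (0.20, -0.31 to 0.71), and over all chosen barcodes at 0.02.

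Ion transport genes showed no common direction. Of 13 measured genes in microglia-poor barcodes 8 lay above 0, with a median of 0.08. Over all chosen barcodes 8 of 16 did, with a median of -0.04. Slc4a5, a sodium bicarbonate cotransporter of the apical membrane, stood at 68.8 and 175 CPM from 11 and 39 UMIs (1.35, 0.36 to 2.46). Car2, a carbonic anhydrase, stood at 475 and 724 CPM (0.61, 0.20 to 1.02). Slc4a2, the basolateral anion exchanger, stood at 338 and 198 CPM (-0.77, -1.38 to -0.17), and Slc12a2, the cotransporter NKCC1, at 400 and 301 CPM (-0.41, -0.93 to 0.11). Kcnj13 (-0.12), Atp1b1 (0.08) and Clic6 (0.28) each had intervals that held 0. Of the other choroid markers 3 of 26 were at least 2-fold higher (Cox8b, Slc4a5 and Mt3) and none was lower, where 5.88% and 3.05% of all measured genes were, and the median was 0.27. Over all chosen barcodes 1 of 33 was higher (Cox8b) and 1 lower (Prlr), where 7.96% and 1.53% of all were, with a median of -0.21. Kl stood at 425 and 598 CPM (0.49, 0.06 to 0.94) in the microglia-poor barcodes and -0.15 over all.

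Prlr was the lowest of the 26 measured choroid markers outside the rule genes. In the microglia-poor barcodes it had 160 UMIs awake and 127 under anesthesia, or 1001 and 571 CPM (-0.81, -1.16 to -0.46), and over all chosen barcodes -1.33 (-1.62 to -1.05). By barcode it ranged from 0 to 2814 CPM awake (median 593) and from 0 to 1739 CPM under anesthesia (median 379). After thinning 12 of 17 awake (70.6%, 44.0 to 89.7%) and 15 of 33 anesthesia barcodes (45.5%, 28.1 to 63.7%) held a Prlr UMI. Its value in the microglia-poor set was -0.54 with equal weight per barcode and -0.98 without the deepest 10%. Prlr lies at chr15:10177238-10349180 on the plus strand.

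The 10 lowest ratios over all chosen barcodes were those of Itm2a, Flt1, Cntn1, Sptbn1, Igfbp7, Cgnl1, Mphosph8, Plpp1, Ifitm3 and C1qtnf12. Some of them are vascular. Flt1, a VEGF receptor of endothelium, had 62 UMIs in 2 of 22 awake microglia-poor barcodes and 13 in 1 of 49 anesthesia ones. Those 3 are the barcodes with endothelial RNA, and without them Flt1 had none. Igfbp7 stood at -1.64 with and -0.37 without them. Cntn1, a neural adhesion molecule, did not move with them: 41 UMIs in 9 barcodes awake and 10 in 8 under anesthesia, or 256.5 and 45.0 CPM (-2.51, -3.67 to -1.49), and -2.59 without the endothelial barcodes. Cntn1 was -1.13 without the deepest 10%, and 16 of the 41 awake UMIs lay in 1 barcode. C1qtnf12 had 26 and 15 UMIs (-1.27, -2.29 to -0.30).

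The same ranking within the microglia-poor barcodes was chosen after the data had been seen. It was led by Nars, Hopx, Cox8b, Smim4, Ccl3, Ndufb1-ps, Pet100, C1qc, Pip5k1b and Myl12b. C1qc is on the microglia list, of which 7 genes were measured here. All 7 lay above 0 and 1 was at least 2-fold higher, where 5.88% of all measured genes were. Their median was 0.47, beside -0.09 in the other passing barcodes. The list took 0.217% of summed UMIs awake and 0.322% under anesthesia, with barcode medians of 0.176% and 0.154%. What this rests on was not tested. Hopx, a homeodomain protein that does not bind DNA itself, had 7 UMIs in 5 of 22 awake barcodes and 44 in 20 of 49 anesthesia barcodes (2.18, 1.01 to 3.57). Pip5k1b, a phosphatidylinositol kinase gene, had 10 and 42 UMIs (1.59) and 0.190 and 0.0668 CPM in the other barcodes. Ndufb1-ps stood at 338 and 1107 CPM from 54 and 246 UMIs (1.71, 1.28 to 2.16), and at 0.87 in the others. GENCODE M21 annotates it as a non-coding transcript from a shared promoter. The lowest were Flt1, Itm2a, Cntn1, Cebpb, Sptbn1, Ifitm3, Ltc4s, Igfbp7, Ly6e and Pbxip1. For Cebpb 36 of 40 awake UMIs lay in 1 barcode.

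**Figure D5:**
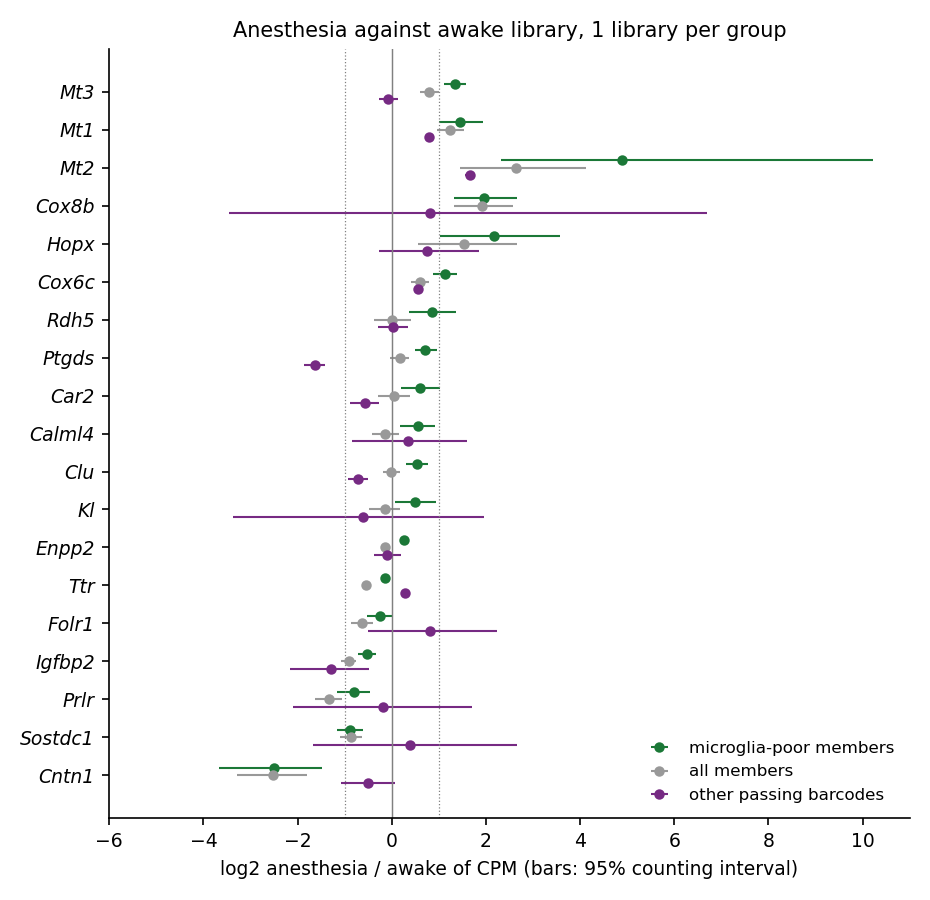
Log2 anesthesia over awake of CPM for 19 genes in microglia-poor members, all members and other passing barcodes, with 95% counting intervals and dotted lines at 2-fold. Mt3 (1.34), Mt1 (1.46) and Cox8b (1.96) lie to the right and Sostdc1 (-0.88), Prlr (-0.81) and Cntn1 (-2.51) to the left in microglia-poor members, with 1 library per group.

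Stress and rhythm genes gave few measured values. Of 10 immediate early genes measured in microglia-poor barcodes 4 were at least 2-fold lower under anesthesia, where 3.05% of all measured genes were, with a median of -0.79 beside -0.52 in the others. Jun stood at 926 and 396 CPM, but 123 of its 148 awake UMIs and 70 of its 88 anesthesia UMIs lay in 3 barcodes of each library. Its median barcode level was 288 CPM awake and 0 under anesthesia. Dusp1 stood at 344 and 135 CPM (-1.35). Without the endothelial barcodes 0 of 8 measured genes were lower and 1 was higher, where 1.5% and 6.22% of all were. There the median was -0.08, and Klf2 went from -1.86 to 0.25. Over all chosen barcodes the list's median was 0.19. Heat shock genes had a median of -0.16 over 12 genes in the microglia-poor barcodes, with none past 2-fold. Of the clock list only Clock was measured over all chosen barcodes (11 and 46 UMIs, 1.01, 0.04 to 2.11), and none was in the microglia-poor ones. The cold-inducible gene Cirbp had 15 and 93 UMIs over all chosen barcodes (1.58, 0.79 to 2.47), and the other passing barcodes gave the same value, 1.58.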

How the data were processed

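The files hold the authors' deposited UMI counts per gene and barcode, whole numbers that are not normalized, for 2 libraries. Per the submitters' processing notes, bcl2fastq and Cell Ranger 3.1.0 with GRCm38 were used, while the file headers name software version 4.0.0. Both libraries carry all 55450 genes. Members and gene lists (28) were chosen with earlier results of these data known. UMIs were summed over barcodes and scaled to CPM with Python 3.11.15, numpy 2.4.6, scipy 1.17.1 and pandas 2.3.3. Ratios have exact conditional binomial 95% intervals, CPM exact Poisson and shares exact Clopper-Pearson ones, for counting error only. No test was made, since each group is 1 library. A gene counted as measured at 50 UMIs and as differing at 2-fold. Named genes were the rule genes, the 20 with the highest member to other ratio (the lower of the libraries, at least 50 UMIs in each), the 10 highest and 10 lowest anesthesia to awake ratios at 100 CPM or more, and up to 6 genes per list by UMIs and 4 by ratio. Mitochondrial, ribosomal, hemoglobin and predicted genes were left out of the rankings. Gene models came from GENCODE M21, and no protein sequences were used. Some genes are not reported here. The interval and ratio code was tested on simulated data. Alternatives varied the member rule, weighting, scaling and thresholds. The alternatives within microglia-poor barcodes were added after seeing the data.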

Additional observations from a re-analysis of the deposited data

Results flagged for a closer look

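Barcodes outside the quality filter also held choroid RNA. Of the 377 awake barcodes that failed it, 6 met the marker part of the rule, on Ttr and on the other rule genes. Of the 468 anesthesia barcodes 10 did. Ttr took a median of 19.0% of their UMIs awake and 27.1% under anesthesia. They stood out because the comparisons above do not use these barcodes. Of the 6 awake ones all had under 500 genes, 4 had under 1000 UMIs and 2 were over 10% mitochondrial. Of the 10 anesthesia ones 9 had under 500 genes, 8 had under 1000 UMIs and 1 was over the mitochondrial limit.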

How the results depend on the processing

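No paired analysis was possible because each group has 1 library. Limits: the awake microglia-poor set rests on 22 barcodes and on 2 deep ones, 2-fold at 50 UMIs is close to counting error, and a list median hides which genes carry it. Fewer or more barcodes, genes or UMIs enter by construction under most settings, and otherwise the cause was not tested. The share of passing barcodes chosen moved from 0.511% awake and 0.984% under anesthesia to 0.307% and 0.723% with at most 5% mitochondrial UMIs, and in the anesthesia library to 0.783% with at least 4 other rule genes and 0.781% at 2000 UMIs. The Ttr share of their UMIs (19.4% awake, 13.2% anesthesia) was 19.0% and 13.04% at 10 Ttr UMIs, 20.8% and 14.4% at 100, 22.7% and 14.97% with 4 other rule genes, 15.1% and 11.2% at 5% mitochondrial UMIs, 18.9% and 12.9% at 2000 UMIs, 29.7% and 26.8% in microglia-poor barcodes, 21.7% and 18.1% with equal weight per barcode, and 24.5% and 15.4% with the rule genes out of the total. The microglial share (2.01% awake, 2.63% anesthesia) was 1.86% and 2.42% at 100 Ttr UMIs, 1.51% and 2.35% with 4 other rule genes, 2.64% and 2.97% at 5% mitochondrial UMIs, 0.567% and 0.879% as the median barcode, 2.09% awake at 10 Ttr UMIs and 2.70% under anesthesia at 2000 UMIs.

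Of genes at least 2-fold higher in members than in the others, 319 awake became 147 at 5% mitochondrial UMIs. The 632 lower awake became 206 at 5% mitochondrial UMIs, 387 in microglia-poor barcodes and 277 with the rule genes out of the total. The 340 lower under anesthesia became 512 at 100 Ttr UMIs, 603 with 4 other rule genes, 127 at 5% mitochondrial UMIs, 562 in microglia-poor barcodes, 1506 with equal weight and 80 with the rule genes out. Medians against the others moved as follows, awake first. Choroid markers went to 11.64 and 11.55 in microglia-poor barcodes. Nuclear oxidative phosphorylation went to 2.43 and 2.92 in microglia-poor barcodes, 1.64 awake at 5% mitochondrial UMIs, 2.31 awake with the rule genes out and 2.41 under anesthesia with equal weight. Immediate early genes (-1.30 and -0.63) went to -1.83 and -0.84 with 4 other rule genes, -0.82 and -0.42 at 5% mitochondrial UMIs, -2.40 and -3.03 in microglia-poor barcodes, -1.45 and -1.31 with equal weight, -0.96 and -0.40 with the rule genes out, and -1.48 awake at 100 Ttr UMIs.

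For anesthesia over awake, the 245 genes higher became 154 at 5% mitochondrial UMIs, 54 in microglia-poor barcodes, 78 without the deepest 10%, 530 with microglial RNA subtracted, 703 at 20 UMIs, 104 at 100 UMIs, 650 past 1.5-fold and 48 past 3-fold. The 47 lower became 28, 21, 392, 257, 12, 242 and 11 under the last 7 of these, 85 with equal weight, 84 with the rule genes out and 82 with median of ratios scaling. The choroid marker median of -0.21 became 0.27 in microglia-poor barcodes, 0.44 with equal weight, 0.38 without the deepest 10% and 0.20 with microglial RNA subtracted. That of nuclear oxidative phosphorylation (-0.02) became 0.19 at 5% mitochondrial UMIs, 0.40 in microglia-poor barcodes, 0.31 with equal weight, 0.18 without the deepest 10% and 0.32 with microglial RNA subtracted. That of immediate early genes (0.19) became -0.79 in microglia-poor barcodes, -0.18 without the deepest 10% and 1.94 with microglial RNA subtracted. That of the microglia list (0.46) became 0.69 with 4 other rule genes, -0.089 with equal weight and -0.24 without the deepest 10%. Within microglia-poor barcodes, choroid markers went from 0.27 to 0.60 and immediate early genes from -0.79 to -3.24 without the deepest 10%, the latter to -1.58 with equal weight, and nuclear oxidative phosphorylation from 0.40 to 0.27 with median of ratios scaling. There the 28 lower genes became 17 without the deepest 10% and 13 without endothelial barcodes. Besides these list medians, directions past 2-fold that turned were those of Cgnl1 (-1.74 to 0.26) and Col8a1 (-1.13 to 0.079) without the deepest 10%, and in microglia-poor barcodes of Cgnl1 (-1.09 to 0.092) with equal weight and Klf2 (-1.86 to 0.25) without endothelial barcodes. Smaller values changed sign too, such as Kl (-0.15) and Enpp2 (-0.13), which stood at 0.49 and 0.27 in microglia-poor barcodes. Of the other values of single genes, 976 stayed near the reported value under the alternatives for all chosen barcodes and 221 did not. Near means within a fixed log2 margin for ratios, which is not a counting interval. For the CPM of rule genes it means within the counting interval.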
